A study of Mus musculus with 6 samples.

Results

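In AGO2-CLASH, RNA is cross-linked to AGO2 and the bound miRNA is ligated to its neighbouring mRNA, and a sequenced hybrid read therefore names both a miRNA and a target fragment. The hybrids described here are those whose fragment lacks any match to the miRNA seed. They come from P19, an embryonic carcinoma line of the mouse, with 3 libraries of WT cells, Dicer (+/+), and 3 of HM cells, Dicer (HM/-). In HM cells 1 Dicer1 allele carries the RNase IIIb hotspot mutation E1797G and the other a truncating loss-of-function frameshift. HM cells are 1 clone, in which a miRNA cluster on chromosome 12 was also silenced, so a difference between WT and HM cells can belong to the clone. No agent was given to either line. Dicer releases 5p strands with its RNase IIIb domain and 3p strands with its RNase IIIa domain.

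Members were chosen by their sequence. For each of the 141 miRNAs with 5 or more reads, of 298 in all, the seed was nt 2-7 of the most common start of its reads. A fragment was a member if it held no reverse complement of those 6 nt. miR-466i-5p (229 reads) was left out. Of 14677 hybrid entries of 140 miRNAs, 5971 were members, with 6112 of 15163 reads (40.3%), 132 miRNAs and 1950 genes, out of 15159 entries in the whole table. A further 157 miRNAs with 288 reads had too few reads for a common start. Just inside that limit 14 miRNAs had 5 reads each, and 22 of their 70 reads were members, while 16 miRNAs with 4 reads each fell outside it. Nearly every member (98.5% of entries) was seen in 1 read, the largest had 16 reads, and 54 held an undetermined base. Libraries held 1929, 2331 and 1621 hybrid reads in WT cells and 1661, 5341 and 2797 in HM cells. Member reads numbered 620, 792 and 594 of these for WT and 676, 2212 and 1218 for HM, in the order of the replicates. A count of 0 allows up to 3 reads, between 0.136% and 0.505% of the member reads of a library, which covers counting error only. All 10 miRNAs listed as markers of pluripotent cells had hybrids, with 28.4% to 31% of reads in WT and 55.9% to 57.9% in HM libraries. Of 8 markers of other cell types, miR-375-3p had 4 reads and the other 7 were at 0.

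A miRNA finds most of its targets through the seed, the bases near its 5′ end that Argonaute holds ready for pairing. Pairing of the 3′ part of the miRNA can add to a seed match or make up for a poor one, and sites with a G:U wobble, a bulge or a shifted register are known as weaker, non-canonical forms. P19 cells, like embryonic stem cells, carry the miR-290 and miR-302 clusters, whose 3p strands share one seed or near copies of it, together with the miR-17-92 family and its paralogs.

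The mature miRNAs below carry most members or the patterns that follow. They are RefSeq sequences on GRCm38.p6, in which 130 of the 140 miRNAs matched, and miR-302a-3p was not among these. Nucleotides 2-8 are in capitals, of which nt 2-7 is the seed used for the rule.
miR-302b-3p, chr3:127545275-127545297 (+): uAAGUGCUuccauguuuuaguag
miR-302d-3p, chr3:127545665-127545687 (+): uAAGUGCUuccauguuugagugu
miR-367-3p, chr3:127545779-127545800 (+): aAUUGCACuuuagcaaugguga
miR-92a-3p, chr14:115044476-115044496 (+, the first of its 2 loci): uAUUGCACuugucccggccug
miR-19b-3p, chr14:115044358-115044380 (+, the first of its 2 loci): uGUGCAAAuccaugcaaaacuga
miR-17-3p, chr14:115043721-115043742 (+): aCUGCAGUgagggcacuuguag
miR-20b-5p, chrX:52742159-52742181 (-): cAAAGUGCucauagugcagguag
miR-291a-5p, chr7:3218932-3218953 (+): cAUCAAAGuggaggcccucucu
miR-290a-5p, chr7:3218639-3218660 (+): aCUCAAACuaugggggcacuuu

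Member fragments of the same gene and miRNA seed that shared 15 nt were joined into clusters. The fragments below stand for clusters seen in 6 libraries and for those with most reads among clusters seen in 5, and show how a near match to the seed looks in the target. All come from 3′ UTRs, the only sequences the authors mapped to, and their coordinates are not given because the build is not given in the sources used here. Capitals mark the 6 nt found by the sequence search around the seed, written as DNA, and the miRNA nucleotide whose pair is altered is named before each. They are not predicted pairs. In the duplexes predicted further on, nt 2 was paired in 100% of reads of the Peg10 cluster. It was paired in 16.7% for Atp7a and 7.69% for Il6st.
Peg10, chromosome 6, G:U opposite nt 6 of the miR-302 seed: agtggacgagtGTACTTattg
Znf451, chromosome 1, G:U opposite nt 6 of the miR-302 seed: ttacccttatGTACTTaatg
Rab1a, chromosome 11, G:U opposite nt 6 of the miR-302 seed: taataaatattGTACTTattg
Rlim, chromosome X, G:U opposite nt 5 of the miR-302 seed: ctgtttatgGCGCTTatgta
Il6st, chromosome 13, U:U opposite nt 5 of the miR-302 seed: aggactctgtGCTCTTtcag
Zfp91, chromosome 19, U:U opposite nt 5 of the miR-302 seed: acctccataatGCTCTTaatg
Atp7a, chromosome X, U:U opposite nt 5 of the miR-302 seed: caatctcatGCTCTTacgtg
Blcap, chromosome 2, U:U opposite nt 5 of the miR-302 seed: ggggagacattGCTCTTtggcctg
Entpd7, chromosome 19, U:U opposite nt 5 of the miR-302 seed: ctataaaatGCTCTTaccag
Ccnd1, chromosome 7, U:C opposite nt 5 of the miR-302 seed: atttacagatGCCCTTtttt
Sox11, chromosome 12, G:U opposite nt 4 of the miR-19 seed: aggcgtatttTTGTACagtg
Tfrc, chromosome 16, match to nt 3-8 of miR-292a-3p: ctatcattttGGCACTgaga
Uhmk1, chromosome 1, in 6 libraries with none of the sites searched: caataaatatatgcacaggga

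Members were a larger share of all hybrids in every HM library than in any WT library, while the libraries overlapped within each arm. Without a seed match were 33.3%, 35% and 38.5% of reads in WT cells against 42.2%, 42.7% and 44.8% in HM cells. Every HM library lay above every WT library, with 43.2% ± 1.38 against 35.6% ± 2.67 (SD, n = 3 each). With 3 against 3 libraries an exact permutation p (two-sided) cannot be below 0.1, which was its value here. Among 3p-miRNAs the shares were 39.6%, 42.2% and 45.0% in WT against 42.6%, 42.9% and 45.2% in HM cells, which overlapped (exact permutation p = 0.4). Among 5p-miRNAs they were 27.2%, 28.5% and 33.1% in WT against 23.5%, 29.6% and 25.4% in HM cells (exact permutation p = 0.3). The HM values of 5p-miRNAs rest on 34, 98 and 59 reads. The makeup of the members moved with the genotype, as 5p-miRNAs supplied 43.7% ± 2.89 of member reads in WT and 1.24% ± 0.0644 in HM libraries (exact permutation p = 0.1). Hybrid reads are relative, and fewer cells of a kind and less RNA per cell cannot be told apart in them. With both arms given equal weight the difference between HM and WT cells was -1.07 points in place of 7.60. With each of 19 miRNAs (71.0% of reads) held at its own share of reads, it was 1.60 points. Both weightings were chosen after seeing the data.

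**Figure D1:**
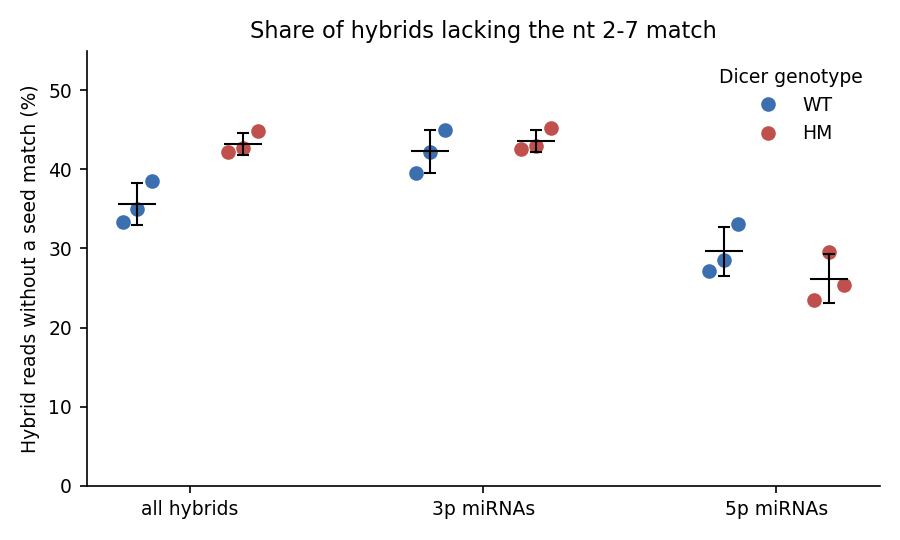
Share of hybrid reads whose fragment lacks the match to nt 2-7, in percent, for all hybrids, 3p-miRNAs and 5p-miRNAs. Points are libraries, horizontal bars the mean of 3 libraries and error bars 1 SD. WT and HM libraries are apart for all hybrids (35.6% against 43.2%) and overlap within each arm.

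Member fragments were 20 to 65 nt long, with a median of 23 nt against 24 nt for seed-matched fragments. A longer fragment holds a 6-nt match more often, and the share without one was 42.2% for fragments of 20 to 21 nt and 30.5% for those of 41 to 66 nt. The median length of members was 24, 24 and 25 nt in WT libraries and 22, 23 and 23 nt in HM libraries (exact permutation p = 0.1, the smallest possible). Among 3p members alone the mean length was 25.6 nt ± 0.685 in WT and 25.2 nt ± 0.555 in HM libraries (SD, n = 3 each), and the libraries overlapped (exact permutation p = 0.6). Members of 5p-miRNAs were longer, with a mean of 27.7 nt ± 0.513 in WT libraries (SD, n = 3). GC content of members was 42.2% ± 1.05 in WT and 41.7% ± 0.240 in HM libraries (SD, n = 3 each).

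Fragments without a seed match held near matches to their own miRNA far more often than fragments taken from other miRNAs. The comparison was with member fragments of miRNAs of another seed, in the same class of length and equally without the seed match asked for. These other fragments were pooled over all 6 libraries, and their share was weighted by the miRNAs and fragment lengths of each library. At least 1 of the site types searched was present in 62.1% of member reads, against 25.8% of other fragments. A shifted match to nt 3-8 was held by 7.4% of member reads against 1.14% of other fragments, one to nt 1-6 by 3.44% against 0.725%, and one to nt 4-9 by 4.17% against 1.34%. A match to nt 2-7 with 1 G:U wobble was held by 13.5% against 3.37%, and one with 1 bulged target base by 11.3% against 4.03%. A single mismatch other than G:U was the most common form. It lay at nt 3-6 in 19.7% of member reads against 9.04%, at nt 2 in 13.3% against 3.79% and at nt 7 in 8.95% against 2.41%. A match to nt 2-8 with 1 inner mismatch was held by 8.2% against 3.10%. Site types overlap, so these shares do not add up to the total.

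Each of these types was above the other fragments in 6 of 6 libraries, with a two-sided exact sign-flip permutation p = 0.03125, the smallest that 6 libraries allow. All 6 libraries were set against the same pool of other fragments, so these comparisons are not fully independent. In all, 12 results were tested, and since each had this p, Benjamini-Hochberg adjustment left it at 0.03125. The exception in direction was a match with 2 or more G:U wobbles, which was held by 3.75% of member reads and 5.80% of other fragments, below them in 6 of 6 libraries. When each cluster was counted once, chosen after seeing the data, this last difference shrank from -1.94 to -0.15 points (exact sign-flip p = 0.53125). Mismatch types at nt 2, nt 7 and nt 3-6 were added after recurrent fragments had been seen. When each read was put in only the first class that fitted, 18.9% had an inner mismatch, 12.8% a single G:U pair, 10.9% a mismatch at nt 2 or 7, 7.59% a shifted match, 4.19% 3′ pairing alone and 40.5% none of these.

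**Figure D2:**
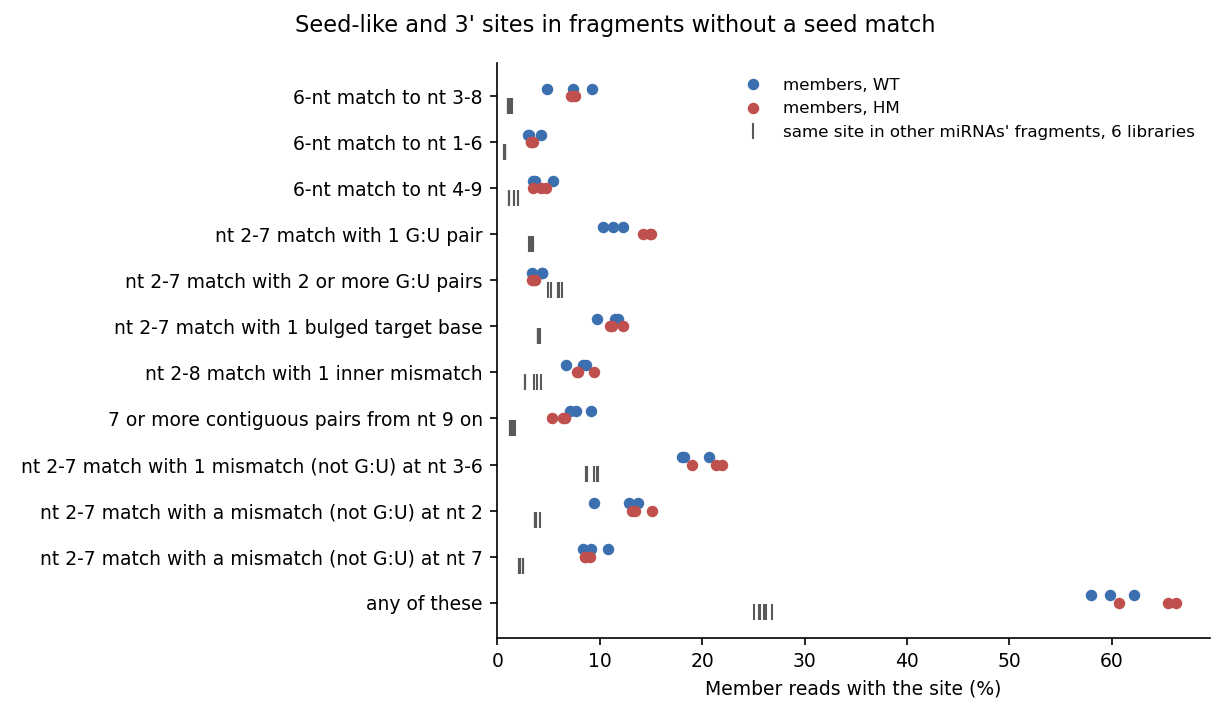
Share of member reads that hold each site type, in percent. Blue and red points are WT and HM libraries. Grey ticks give the same site in fragments of other miRNAs, pooled over the 6 libraries and weighted by the miRNAs and lengths of each. Members lie to the right of the ticks for each type other than 2 or more G:U pairs, where they lie to the left.

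Over both arms together, 2 of the site types did not overlap between genotypes, a single G:U wobble, which was more frequent in HM members, and 3′ pairing, described further on. The wobble was held by 10.3%, 12.2% and 11.3% of member reads in WT cells against by 14.9%, 14.2% and 15.02% in HM cells. No HM library overlapped a WT library, and the exact permutation test gave p = 0.1, below which no adjustment over site types can go. Within 3p-miRNAs the shares were 12.3% ± 0.193 in WT and 14.9% ± 0.491 in HM libraries (SD, n = 3 each, exact permutation p = 0.1). Without Peg10, a choice made after seeing the data, the values over both arms were 10.8% ± 0.760 and 12.8% ± 0.526 (SD, n = 3 each), still without overlap. Without Peg10 an inner mismatch did not overlap either, with 17.8% ± 0.465 in WT and 21.1% ± 1.77 in HM libraries (SD, n = 3 each, exact permutation p = 0.1). Within 3p-miRNAs a match to nt 3-8 was held by 5.26% ± 0.604 of WT and 7.37% ± 0.0803 of HM members, one to nt 4-9 by 2.72% ± 0.315 and 4.22% ± 0.652, and a mismatch at nt 2 by 10.6% ± 1.44 and 13.8% ± 1.03 (SD, n = 3 each). Libraries did not overlap in these 3 either, and each had an exact permutation p of 0.1, the smallest possible. In every other site type apart from the single G:U wobble, the libraries overlapped within 3p-miRNAs. The mix of 3p-miRNAs also differed, as miR-17-3p and miR-20b-3p had 2 and 3 member reads in WT against 142 and 113 in HM libraries. Members of their seed, CUGCAG, held a mismatch at nt 2 in 24.7% and a match to nt 3-8 in 11.8%. The part of this mix in the differences was not tested. The depth of HM library 2, at 2212 member reads, was above that of each WT library.

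The shares depended on the place of the altered pair. A fragment with several such sites is counted at each. A mismatch opposite nt 5 was held by 10.4% of member reads against 1.98% of other fragments, while one opposite nt 3 was held by 4.65% against 3.63% and one opposite nt 6 by 1.90% against 1.67%. The nt 6 mismatch was above the other fragments in 4 of 6 libraries, and that at nt 4 (3.32% against 1.97%) in 5 of 6. G:U wobbles were most frequent opposite nt 6, with 5.32% of member reads against 1.05%, then opposite nt 4 (3.26% against 0.932%) and nt 5 (2.50% against 0.749%). Opposite nt 7 wobbles were in 1.54% of member reads against 0.268%, opposite nt 2 in 0.458% against 0.117% and opposite nt 3 in 0.507% against 0.322%. A wobble at nt 2 could occur only in 503 reads with G there and 230 with U. It was in 3.58% and 4.35% of these, against 0.972% and 0.974% of other fragments. By bases, 72 single changes were counted, and 36 of them could occur in at least 1000 member reads. Among those 36, 15 were over 2 times as frequent in members as in other fragments. The commonest was U opposite U at nt 5, in 15.9% of the reads that could hold it against 1.41%. It was followed in size by U opposite G at nt 6 (11.1% against 2.14%) and G opposite A at nt 7 (7.23% against 0.606%). These shares are given as a description, with no test.

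**Figure D3:**
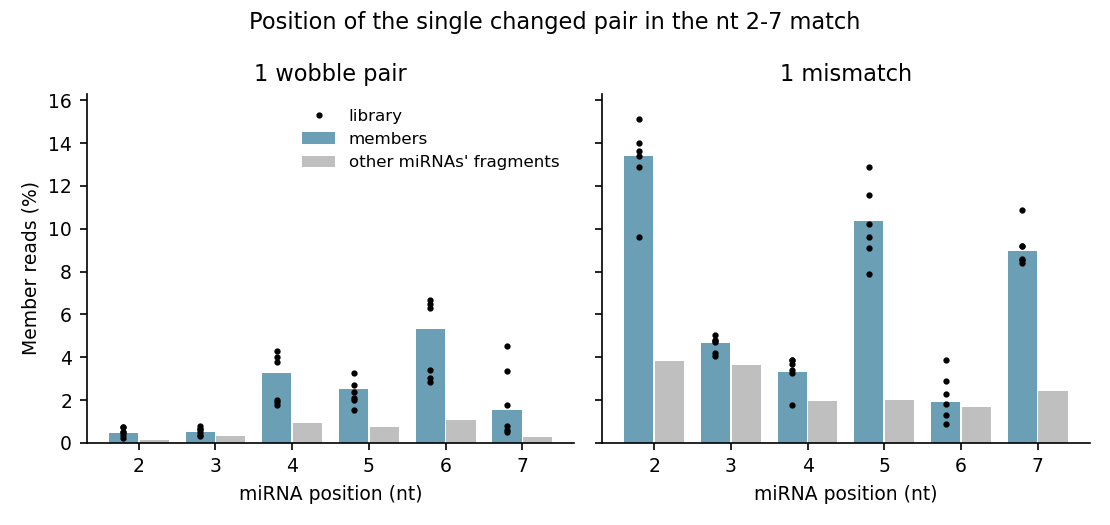
Share of member reads, in percent, with a match to nt 2-7 in which 1 pair is a G:U wobble (left) or a mismatch (right), by the miRNA nucleotide affected. Blue bars are members, grey bars fragments of other miRNAs and black points the 6 libraries. Mismatches at nt 2, nt 5 and nt 7 and the wobble at nt 6 stand well above the grey bars, and the mismatches at nt 3 and nt 6 stand close to them.

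Nearly all of the U:U changes at nt 5 (442 of 447 reads) and G:U wobbles at nt 6 (316 of 318 reads) came from the seed AAGUGC, shared by miR-302a-3p, miR-302b-3p, miR-302d-3p, miR-291a-3p, miR-292a-3p, miR-294-3p and miR-295-3p. These strands keep embryonic stem cells dividing and repress genes of differentiation. They had 4942 hybrid reads, of which 2715 (54.9%) were members in 899 genes. The site GCTCTT, in which U faces U at nt 5, was held by 442 of these reads in 167 genes, 16.3% against 0.861% of fragments of other seeds. By library it made up 16.7%, 23.7% and 18.5% of the members of this seed in WT cells and 17.5%, 13.4% and 16.9% in HM cells, which overlapped (exact permutation p = 0.3). The site was chosen here as the commonest single change, and its share is a description with no test against other fragments. Its leading gene held 28 reads and, without it, the share was 15.4%.

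The genes with most GCTCTT reads were Il6st, which encodes the gp130 receptor of the LIF family, Zfp91, a zinc finger ubiquitin ligase, and Atp7a, a copper transporter. Il6st had 2, 1 and 1 such reads in WT cells against 7, 9 and 8 in HM cells. Zfp91 had 2, 3 and 1 in WT against 3, 8 and 9 in HM cells, and Atp7a 6, 3 and 3 in WT against 3, 7 and 4 in HM cells. All 3 genes were seen in all 6 libraries, and these counts are not scaled to library depth. Over all its member reads, Il6st was not called between genotypes (log2 change 1.51, edgeR adjusted p = 0.0752). With 3p totals its change was 0.49 (edgeR adjusted p = 0.718). The target base opposite nt 8 of the miRNA was U in 72.2% of GCTCTT reads, where miR-302 strands have U, and A in 16.7%. In seed-matched fragments of the same miRNAs it was A in 51.7% and U in 28.8%. These shares are a description with no test.

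The site GTACTT, with G:U at nt 6, was held by 316 member reads of the same seed in 104 genes, 11.6% against 0.871%. It made up 9.60%, 9.39% and 8.0% in WT cells against 12.5%, 12.4% and 12.5% in HM cells, without overlap (exact permutation p = 0.1). Peg10, an imprinted gene derived from a retrotransposon, supplied 117 of these reads, with 3, 8 and 5 in WT cells against 16, 56 and 29 in HM cells. Without Peg10, an alternative chosen after seeing the data, the share was 7.80%. It was then 8.25%, 6.38% and 5.85% in WT cells against 8.55%, 7.89% and 8.29% in HM cells. The groups overlapped without Peg10 (exact permutation p = 0.2), so their separation rested on this gene. Rab1a, a GTPase of vesicle traffic, had 13 reads over 6 libraries, and Znf451 had 13 reads over 5. The base opposite nt 8 was U in 82.3% of GTACTT reads, and the Peg10 fragment shown above, from the gene with 117 of them, has U there. GCGCTT, with G:U at nt 5, was held by 83 reads (3.06% against 0.196%), of which 38 were from Rlim, a ubiquitin ligase known for its part in X inactivation. By contrast GCACTA, with A facing A at nt 2, was held by 5.12% against 5.21% of other fragments.

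Other seeds had their own mixtures. For the seed AUUGCA of miR-367-3p, miR-92a-3p and their relatives, 33.1% of 3301 reads were members, and a bulged target base (13.9% against 3.40%) and a match to nt 3-8 (7.50% against 0.334%) stood out. For GUGCAA of miR-19a-3p and miR-19b-3p, 40.96% of 879 reads were members and 33.3% of these held 1 G:U wobble against 3.25%. A single cluster in Sox11, a transcription factor of neural progenitors, supplied 71 of its 360 member reads. For CUGCAG, the seed that the 3p strands of miR-17, miR-20b and miR-106a have in common, 60.4% of 475 reads were members, with a mismatch at nt 2 in 24.7% against 3.76%. The seed CUCAAA of miR-290a-5p, miR-292a-5p and miR-294-5p had the highest member share of the seeds named here, 75.8% of 157 reads, and a match to nt 3-8 in 37% of members against 0.742%. The lowest shares among these were 22.1% of 2074 reads for AAAGUG of the miR-17 family and 15.4% of 781 reads for AGUGCA of miR-130 and miR-301.

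Pairing of the 3′ part was also more frequent than in other fragments. At least 7 contiguous Watson-Crick pairs from nt 9 on were present in 6.72% of member reads against 1.34% of other fragments, above them in 6 of 6 libraries (exact sign-flip p = 0.03125). In 5p-miRNAs the share was 13.3% and in 3p-miRNAs 5.24%. By library it was 9.19%, 7.70% and 7.07% in WT and 6.66%, 6.37% and 5.34% in HM cells, without overlap (exact permutation p = 0.1). Within 3p-miRNAs the libraries overlapped, with 4.13% ± 1.03 in WT and 5.56% ± 0.833 in HM cells (SD, n = 3 each, exact permutation p = 0.2).

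Duplexes were then predicted for each miRNA with its fragment and with fragments of other miRNAs. The mean energy was -11.2 kcal/mol ± 0.399 in WT and -9.80 kcal/mol ± 0.185 in HM libraries (SD, n = 3 each, exact permutation p = 0.1). Among 3p members it was -9.30 kcal/mol ± 0.300 and -9.69 kcal/mol ± 0.168, and the libraries overlapped. Members paired more strongly than the same miRNAs did with other fragments, by a mean of -2.42 kcal/mol ± 0.496 (SD over 6 libraries, exact sign-flip p = 0.03125). Reads paired at nt 3 rose from 34.6% in other fragments to 58.5% in members, and at nt 6 from 61.0% to 73.9%. Members were above the other fragments at each of nt 1 to 7 and nt 13 to 18 in 6 of 6 libraries, and below them at nt 9, 10 and 11 in 6 of 6. Fragments outside the classes of sites were above the other fragments in 6 of 6 libraries at nt 13 to 20, by 4.15 to 8.97 points. The same held at nt 22. At nt 7 they were below in 6 of 6, with 54.8% paired against 59.9%. The class was defined as lacking the near matches to nt 2-7 classed above, a selection not made for the other fragments. The values at nt 7, at nt 13 to 20 and at nt 22 are therefore no independent results. The class also held 81 reads of Laptm4a, 19, 31 and 31 in WT libraries, whose pairing is described below. The mean energy of this class was -9.22 kcal/mol, compared with -8.06 kcal/mol for other fragments.

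**Figure D4:**
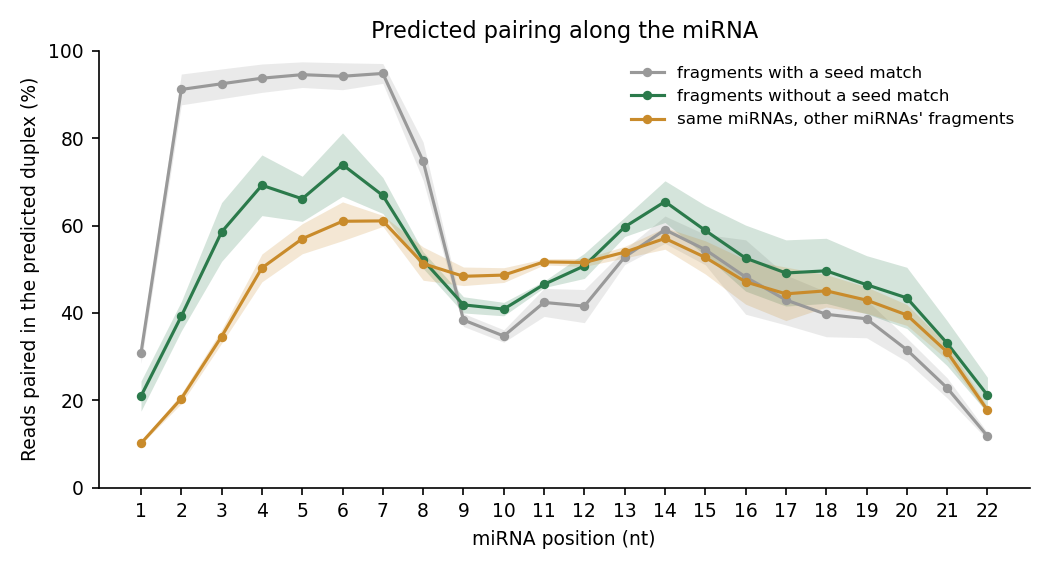
Share of reads, in percent, paired at each miRNA nucleotide in the predicted duplex, as the mean of 6 libraries with a band of 1 SD. Green is members, grey seed-matched fragments and ochre the same miRNAs with fragments of other miRNAs. Members exceed the ochre line at nt 1 to 7 and nt 13 to 18 and fall below it at nt 9 to 11.

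A small group had no seed pair at all and a strong 3′ duplex. No nucleotide of nt 2-7 was paired in 14.8% of member reads, below the 22.9% of other fragments in 6 of 6 libraries. With a predicted energy of -15 kcal/mol or lower as well, however, there were 135 member reads (2.21% against 0.291%), above other fragments in 6 of 6 libraries. They made up 5.32%, 5.30% and 6.73% of member reads in WT cells against 0.296%, 0.497% and 0.575% in HM cells. Of the 135 reads 22 were of 3p-miRNAs. Within 3p members these made up 0.279%, 0.661% and 0.321% in WT cells against 0%, 0.508% and 0.503% in HM cells, which overlapped. Over all libraries the 3p share was 0.427% against 0.168% of other fragments, above them in 5 of 6 libraries (exact sign-flip p = 0.09375). Laptm4a, which encodes a lysosomal membrane protein, supplied 81 of the 135, nearly all with miR-291a-5p. Its cluster had 19, 31 and 31 reads in WT libraries and 0 in each HM library. In these reads nt 8 to 22 were each paired in at least 97.5% and nt 1 to 7 in 0%, with a mean energy of -24.1 kcal/mol against -11.3 kcal/mol for other fragments.

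The fragments below show other strong duplexes, with the bases that pair with the miRNA in capitals. They were chosen after their values were seen.
Camk2n1 with miR-92a-3p, pairs from nt 4 to 21: agtCAGGCCGGGAgAcagatgaGGTGgAg
Rcc2 with miR-290a-5p, pairs from nt 3 to 22: aAAAGTGtttCCCTCAatGTTTGAttaaaa
Tgif1 with miR-92a-3p, pairs from nt 3 to 18: aattGCCGGGGgtgatgGCAAgaga

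The Camk2n1 cluster, from a gene for an inhibitor of CaM kinase II, had 21 reads, 5, 10 and 6 in HM libraries and 0 in each WT library. It had a mean energy of -24.6 kcal/mol against -10.5 kcal/mol with other fragments. Rcc2, a factor of chromosome condensation and cell division, had 4, 9 and 5 reads of its cluster in WT libraries and 0 in each HM library. Tgif1, a homeobox repressor, had 29 reads over 5 libraries, paired at nt 4 to 6 and nt 12 to 18 in 100% of them. Its mean energy was -18.7 kcal/mol against -9.04 kcal/mol.

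Few miRNAs supplied most members. miR-302b-3p had 1328 member reads (53.8% of its hybrids), miR-367-3p 795 (34.9%), miR-302a-3p 562 (58.5%), miR-302d-3p 532 (57.0%) and miR-19b-3p 332 (41.1%). They were followed by miR-92a-3p, miR-292a-3p, miR-17-3p, miR-20b-5p and miR-291a-5p with 198, 145, 144, 138 and 129 member reads, and these 10 together held 70.4% of members. Among 50 miRNAs with at least 30 reads the share without a seed match ran from 3.23% to 83.3%, with a median of 36.2%. It was above that of every other miRNA in miR-290a-5p (83.3% of 78 reads), followed by miR-300-3p (78.9% of 38) and miR-292a-5p (70.1% of 67). Next came miR-20b-3p (63.7% of 182), miR-291a-5p (129 of 215 reads) and miR-106a-3p (27 of 45 reads). miR-300-3p, which lies on chromosome 12 as does the cluster silenced in HM cells, had 8 hybrid reads in WT and 30 in HM libraries. The lowest shares were those of miR-191-5p (3.23% of 31 reads), miR-130a-3p (9.51% of 368), miR-93-5p (14.6% of 451), miR-376b-3p (15.6% of 32) and miR-25-3p (15.8% of 265). The median was 41.1% over 33 3p-miRNAs and 28.6% over 16 5p-miRNAs. These shares follow from the rule and are given with no test.

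**Figure D5:**
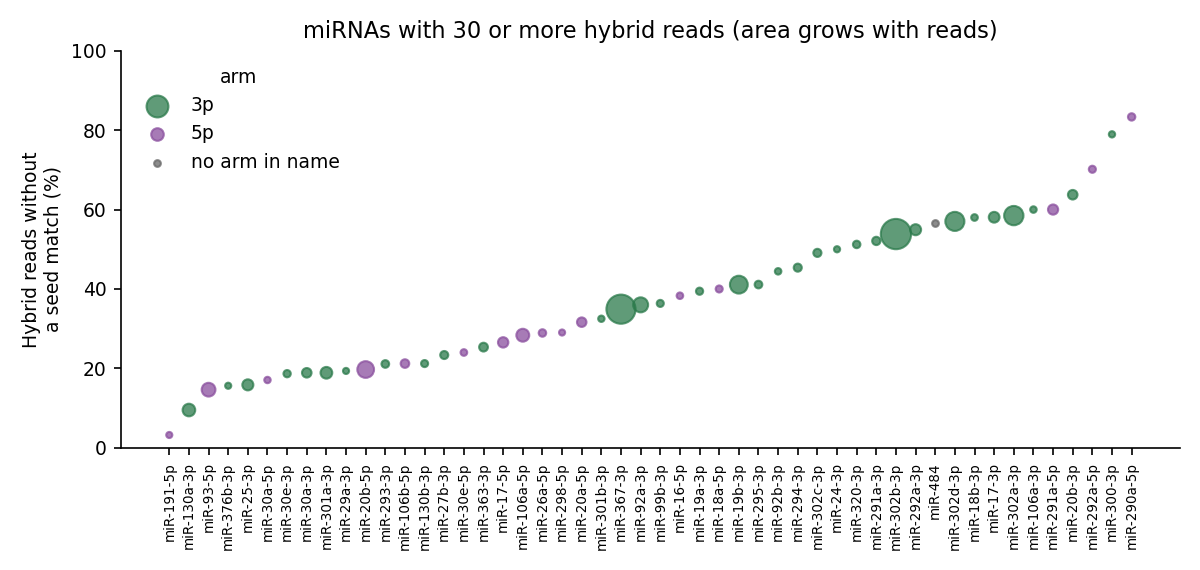
Share of hybrid reads without a seed match, in percent, for each of the 50 miRNAs with at least 30 hybrid reads, in rising order. The area of a point grows with the number of reads, and colour gives the arm. Shares run from 3.23% for miR-191-5p to 83.3% for miR-290a-5p, with miR-302b-3p, the largest point, at 53.8%.

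Members were spread over many genes. Of 1950 genes, 987 had 1 member read, and 1138 also had a seed-matched fragment. Of 3876 pairs of gene and miRNA among members, 717 (18.5%) also had a seed-matched fragment. The 10 genes with most member reads held 11.5% of them, and those reported here follow. Peg10 had 209 member reads (92.5% of its hybrids), with 11, 19 and 30 in WT against 22, 82 and 45 in HM cells. Sox11 had 92 (94.8%) and Laptm4a 82 (70.7%). Rlim had 60 (77.9%) and Zfp91 44 (57.9%). Tfrc, the transferrin receptor, had 41 (50.6%), Il6st 40 (71.4%), Trib1, a pseudokinase, 39 (100%), and Znf451, a SUMO ligase, 37 (69.8%).

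Genes of 3 lists were followed through the members. Of 31 genes of the silencing machinery, 15 had a member, with 149 member reads (49.5% of their hybrids, from 36.8% to 60.5% by library). Cnot6, a subunit of the deadenylase complex, led with 31 member reads, and Tnrc6a, Tnrc6b and Tnrc6c, the partners of Argonaute in silencing, had 21, 25 and 19. Of 30 cell cycle genes 15 had a member, with 55 of 146 reads (37.7%), led by Ccnd1 (cyclin D1) with 22. Of 30 pluripotency genes 6 had a member, with 22 of 48 reads (45.8%), led by Mycn with 12. Over all genes the share was 40.3%. The lists were chosen with earlier results known and were not tested.

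Some sites recurred. Of 4411 clusters, 449 were seen in at least 2 libraries, 228 in both genotypes, 64 in at least 4 libraries and 9 in all 6. Those in all 6 included clusters in Peg10, Sox11, Rlim, Il6st, Zfp91, Atp7a, Uhmk1 and Tfrc. Of the 64, an inner mismatch was the leading class in 25, none of the classes of sites in 15, a mismatch at nt 2 or 7 in 10 and a single G:U pair in 8. The Peg10 cluster had 116 reads over 43 distinct fragments with 18 different starts. The part of sequencing errors in members of 1 read was not tested. Where another fragment of the gene overlapped a member, the match lay just downstream in 1.13% of member reads, within it in 0.556% and upstream in 0.458%, and 56.3% of reads had no overlapping fragment. The last 4 bases of members matched the start of the site in 0.589% against 0.530% of other fragments (exact sign-flip p = 0.40625). Sites lay close to the 3′ end of the fragment, with a median of 4 nt after a G:U site, 5 nt after one with an inner mismatch and 5 nt after a full match in seed-matched fragments.

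The start of the miRNA part varied as well. In 15.2% of member reads it differed from the most common 8 nt of the miRNA, against 7.56% of seed-matched reads. A match to nt 2-7 of the read's own start was present in 218 member reads (3.57%), led by miR-367-3p with 49. It was present in 1.77%, 3.41% and 1.85% of member reads in WT against 4.73%, 4.11% and 3.78% in HM cells, without overlap (exact permutation p = 0.1).

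Which miRNAs gained or lost hybrids without a seed match was tested with edgeR's quasi-likelihood test and Benjamini-Hochberg adjustment, relative to 3p hybrids. Reads were summed per miRNA and class, seed-matched or not, and 127 such features had at least 10 reads. Of the 56 features without a seed match, 29 differed between HM and WT cells at an adjusted p under 0.05, against 55.9% of all features tested. Of these, 9 were higher in HM cells (13.4% of all features were) and 20 lower (42.5% of all features were). All 15 5p features were lower. Of 40 3p features 9 were higher and 5 lower, and their median log2 fold change was 0.07. The median of all features moved by 1.00 on the log2 scale with totals of all hybrids and by 0.56 with TMM.

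miR-291a-5p had 39, 45 and 45 member reads in WT libraries and 0 in each HM library, at least 149-fold lower (edgeR adjusted p = 2.20e-56), with 3 reads over the HM libraries as the bound. miR-290a-5p (21, 33 and 11 reads) and miR-17-5p (16, 21 and 23 reads) were also at 0 in HM libraries, at least 74.95-fold and 69.2-fold lower. For miR-106a-5p, 32, 32 and 41 reads in WT stood against 0, 2 and 3 in HM libraries, which is a change of -6.04 on the log2 scale (SE 0.39) at an edgeR adjusted p = 6.15e-43. miR-20b-5p kept 3, 9 and 8 reads after 29, 41 and 48, at -4.32 (SE 0.30, edgeR adjusted p = 1.77e-39). miR-93-5p and miR-292a-5p each had 1 read in HM libraries after 65 and 46 in WT libraries. With 1 read, the ratio of HM to WT was 0.00445 (95% counting interval 0.000111 to 0.0257) for miR-93-5p. Without HM library 2, which held these single reads, the fitted changes went from -7.16 to -8.07 for miR-93-5p and from -6.66 to -7.57 for miR-292a-5p. That of miR-106a-5p was -6.76 without HM library 3, and these calls were kept. miR-106b-5p, miR-18a-5p and miR-26a-5p had 28, 26 and 24 WT reads and 0 HM reads, and were at least 32.3-fold, 29.98-fold and 27.7-fold lower.

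Of the 9 3p-miRNAs that rose, 5 were partner strands of 5p-miRNAs named or counted above, those of miR-17, miR-20a, miR-20b, miR-93 and miR-106a. Other partner strands were tested without a call, among them miR-18a-3p (edgeR adjusted p = 0.0546), miR-302c-3p (0.155), miR-30e-3p (0.209), miR-292a-3p (0.855) and miR-291a-3p (0.971). miR-17-3p had 2, 0 and 0 member reads in WT cells against 22, 79 and 41 in HM cells, a ratio of 20.5 (95% counting interval 5.58 to 171, edgeR adjusted p = 1.66e-11). Without WT library 1, which held both of its WT reads, the fitted change went from 4.24 to 8.08 on the log2 scale, and without WT library 2 it was 3.55, with the call kept in either case. miR-20b-3p had 1, 1 and 1 and then 19, 64 and 30, a ratio of 10.9 (3.63 to 53.6, edgeR adjusted p = 3.61e-08). miR-19b-3p had 15, 19 and 13 and then 48, 162 and 75, a rise of 0.80 on the log2 scale (SE 0.23, edgeR adjusted p = 0.00170). miR-106a-3p, miR-20a-3p and miR-93-3p were at 0 in WT cells and had 27, 16 and 15 reads in HM cells, a rise of at least 2.60-fold, 1.54-fold and 1.45-fold. miR-30a-3p had 2 reads in WT and 32 in HM libraries, a ratio of 4.63 (95% counting interval 1.18 to 39.8). The calls of miR-20a-3p and miR-93-3p were lost without any 1 WT library (edgeR adjusted p from 0.0767 to 0.0783 and from 0.0701 to 0.0854). That of miR-30a-3p was lost without WT library 1 (0.204), WT library 2 (0.0682) or HM library 2 (0.0705). For miR-302b-3p the counts were 64, 97 and 82 against 184, 584 and 317, a rise of 0.37 on the log2 scale (SE 0.14, edgeR adjusted p = 0.0152), although its libraries overlapped per 3p hybrid. miR-302a-3p and miR-302d-3p were lower, by -0.59 (SE 0.16) and -0.50 (SE 0.17). With totals of all hybrids they turned to 0.46 and 0.55 and were called higher, so their direction depends on the scale.

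The balance of hybrids without and with a seed match was compared between HM and WT cells in 48 miRNAs with at least 10 reads in each class. It differed in 0 of them (0% of those tested, edgeR interaction), and in 0 at an unadjusted p under 0.05. Some of the 48 could not have passed. miR-106b-5p, miR-26a-5p, miR-30e-5p, miR-290a-5p and miR-291a-5p had 0 reads of both classes in HM libraries, and miR-106a-3p had 0 in WT libraries. A balance cannot be compared there. The smallest unadjusted p was 0.0558, for miR-293-3p, followed by 0.0647 for miR-19b-3p, which is no sign that the balances were equal. With 1 WT library left out, 1 to 3 miRNAs passed an unadjusted p of 0.05, and without HM library 3, 2 did.

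By gene, relative to all hybrids, 288 features had at least 10 reads and 105 of them were without a seed match. Of the 105, 13 differed between HM and WT cells (edgeR adjusted p under 0.05), against 19.1% of all features, with 8 higher (5.56% of all features) and 5 lower (13.5% of all features). Libraries did not overlap in any of the 13. The same held for features without a call, such as Ube2b, Il6st, Lifr and Jmy without a seed match, so it does not set the 13 apart. The 5 lower genes held mostly 5p reads, from 12 of 15 in Fjx1 to 18 of 18 in Rcc2. Laptm4a had 20, 31 and 31 member reads in WT libraries and 0 in each HM library, at least 45.5-fold lower (edgeR adjusted p = 5.69e-22). Rcc2 had 4, 9 and 5 and then 0 in each, at least 10.0-fold lower (edgeR adjusted p = 1.29e-05). Spry4, an inhibitor of receptor tyrosine kinase signalling, had 3, 5 and 2 and then 0 in each, at least 5.55-fold lower (edgeR adjusted p = 0.00470). Tnrc6a had 4, 6 and 8 reads and then 0, 1 and 2, a ratio of 0.10 (95% counting interval 0.0189 to 0.343), and Fjx1 had 14 reads in WT and 1 in HM libraries. The fitted change went from -3.14 to -4.04 on the log2 scale for Tnrc6a without HM library 3 and from -4.02 to -5.32 for Fjx1 without HM library 2, which held its 1 HM read. Wherever they were tested with 1 library left out, the 5 lower genes kept the call. Spry4 fell under the minimum of 10 reads without any 1 WT library, and Rcc2 and Fjx1 did without WT library 2, so they were not tested there.

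The 8 higher genes held 3p reads, with 1 5p read among them, in Otud4. Camk2n1 was without member reads in WT libraries and held 5, 11 and 8 of them in HM cells, a rise of at least 4.8-fold (edgeR adjusted p = 0.000919). Trib1 had 0, 0 and 3 and then 5, 18 and 13, a ratio of 7.20 (95% counting interval 2.28 to 36.6, edgeR adjusted p = 0.00333). Sox11 had 3, 8 and 5 and then 11, 36 and 29, a rise of 1.51 on the log2 scale (SE 0.43, edgeR adjusted p = 0.00521). Otud4, a deubiquitinase, and Ptar1, a prenyltransferase subunit, were both at 0 in WT cells with 4, 10 and 2 reads in HM cells, a rise of at least 3.20-fold. Fmr1, the RNA-binding protein lost in fragile X syndrome, had 0 and then 3, 7 and 1, at least 2.20-fold higher (edgeR adjusted p = 0.0481). Plekhm1, a lysosome adaptor, and Top2a, a topoisomerase of dividing cells, each had 1 read in WT libraries, with 20 and 19 in HM libraries.

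Of these 8 calls, that of Camk2n1 alone held with 3p hybrid totals as the scale, where the median of all features moved by -0.999 on the log2 scale. Without WT library 1 that of Sox11 was lost (edgeR adjusted p = 0.0600), and without WT library 2 those of Trib1 (0.0941) and Plekhm1 (0.123). The fitted change of Trib1 was 2.74 on the log2 scale, 2.06 without WT library 2 and 6.39 without WT library 3, which held all 3 of its WT reads. That of Plekhm1 went from 3.22 to 5.48 without WT library 1 and that of Top2a from 3.19 to 5.40 without WT library 2, each with its 1 WT read left out. Top2a lost its call without WT library 1, WT library 3 or HM library 1, Plekhm1 also without WT library 3, and Fmr1 without any 1 WT library. Without HM library 2, Otud4, Ptar1, Plekhm1, Top2a and Fmr1 were under the minimum of 10 reads and not tested, nor was Fmr1 without HM library 1. With DESeq2 those of Otud4, Ptar1, Plekhm1 and Top2a were lost and Fmr1 was given no adjusted p, and with each distinct hybrid counted once that of Sox11 (0.156). With no minimum of reads, those of Sox11, Otud4, Ptar1, Plekhm1, Top2a and Fmr1 were lost, and with TMM that of Fmr1 (0.0595).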

How the data were processed

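AGO2-CLASH libraries of P19 cells, 3 WT and 3 HM biological replicates, were analysed from the table of hybrids that the authors deposited. According to the study's methods, the miRNA part was named with QuagmiR, the target part was mapped with Bowtie2 to 3′ UTRs of mouse coding genes, and the list was kept to interactions predicted by TargetScan 8.0. The submitters' processing notes name Bowtie. Genome build, tool versions and the treatment of PCR duplicates are not given in the sources used here. The deposited unit is the count of reads of each distinct hybrid sequence in a library, as the authors left it, without scaling, and replicates were not pooled. The TargetScan filter acts on the pair of gene and miRNA, so a member is a fragment without the seed match from a gene predicted to hold a site somewhere. Fragments outside 3′ UTRs are absent from all counts, and reads may not be independent molecules.

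The members, lists and tests were chosen with earlier results of these data known. Some gene symbols stand in date form, as a spreadsheet writes them, and were left as they are.

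The seed was nt 2-7 of the most common first 8 nt of each miRNA with at least 5 reads. Offset, wobble, bulge, mismatch and 3′ sites were searched on the fragment strand. The background was the exact average over member fragments of miRNAs with another seed, in the same of 13 length classes, that also lacked the seed match asked for. For sites it was pooled over all 6 libraries and weighted by the miRNAs and lengths of each library. Members against this background were compared by an exact sign-flip test over 6 libraries, and WT against HM by an exact permutation test of means, both two-sided. Duplex energies came from ViennaRNA 2.7.2. Reads per miRNA or gene, split by class, were tested with edgeR 4.0.16 (R 4.3.3; at least 10 reads in total; library size 3p hybrids for miRNAs and all hybrids for genes) at a Benjamini-Hochberg adjusted p of 0.05. DESeq2 1.42.0 was an alternative. Ratios with 1 to 3 reads in a group have exact 95% counting intervals, and groups at 0 were set to 3 reads. Python 3.11.15, numpy 2.4.6, pandas 2.3.3, scipy 1.17.1 and matplotlib 3.10.9 were used, and scripts were tested on simulated data.

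The genes named were fixed by rule: the 10 miRNAs and 10 genes with most member reads, the 5 highest and 5 lowest shares among miRNAs with at least 30 reads, called features without overlap up to 10 in each direction, and recurrent clusters up to 15 outside chromosome 18. Others are named as chosen after their values were seen. Some items that the rule names are not reported here. Alternatives covered the unit counted, the seed definition, the miRNA start, read minimums, fragment length, background, scaling, tool, replicate block and leaving out each library.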

Additional observations from a re-analysis of the deposited data

How the results depend on the processing

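The difference between HM and WT cells in the share without a seed match (7.60 points over all hybrids) was 2.66 with a match to nt 2-8, 11.9 in fragments of 20 to 25 nt, 1.60 with miRNAs held at fixed weights and -1.07 with the arms weighted equally, the last 2 chosen after seeing the data. It lay between 6.44 and 9.06 when any 1 library was left out. Within 3p-miRNAs it lay between -0.04 (without WT library 1) and 2.67, and within 5p-miRNAs, where it was -3.43, between -5.14 and -1.67. It turned to 5.66 in 5p fragments of 20 to 25 nt and to 26.9 with miR-466i-5p kept. Of 84 comparisons of the 12 site types under other settings, 83 kept their direction and their side of the threshold. The exception was 2 or more G:U pairs with each cluster counted once (-0.147, exact sign-flip p = 0.53125). With 5 libraries the smallest p of the sign-flip test is 0.0625. The count of miRNAs higher without a seed match was 14 with TMM, 21 with totals of all hybrids, 15 with DESeq2 and 5 with at least 30 reads, and 4 (without WT library 1) to 10 when 1 library was left out. Leaving out WT library 2 or HM library 2 gave 5. The count lower was 34 with no minimum of reads and 10 with at least 30, and 14 to 20 when 1 library was left out. For genes the count higher was 1 with 3p totals, 3 with DESeq2, 2 with no minimum and 4 with at least 30 reads, and 5 to 8 when 1 library was left out (5 when it was WT library 1, WT library 2 or HM library 2). The count of lower genes was 12 with 3p totals and 1 with at least 30 reads, and 2 (without WT library 2) to 5 when 1 library was left out. Some genes fell under the minimum of reads in these counts and were not tested. For the 30 named features 319 of 359 alternatives kept the call and 40 lost it with the same direction. Same-numbered replicates of WT and HM libraries did not deviate together (correlations of -0.17, -0.11 and 0.05 over miRNAs and -0.04, 0.09 and 0.04 over genes). With the replicate block 26 in place of 29 miRNA features and 12 in place of 13 gene features were called. Most members rest on 1 read, and 5p members of HM libraries number 8, 29 and 15, so shares of 5p site types were not compared between genotypes.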
